A study of Mus musculus with 9 samples.

Results

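The genes described here are the mouse Trim genes, which encode tripartite motif proteins, most of them E3 ubiquitin ligases. Members were the genes of the count table whose mapped symbol was Trim followed by a number and at most 1 further letter. This rule gave 68 of the 49315 gene IDs of the table, of which 48970 had a symbol. A list of 15 members known as interferon-inducible was contrasted with the other 53. All 68 had at least 1 count in the 9 mice, and 45 passed the filter on low counts and were tested for a difference between old and young brain, 11 of the interferon-inducible and 34 of the other members.

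A tripartite motif protein carries a RING domain, 1 or more B-boxes and a coiled coil, followed by a C-terminal region that binds the substrate. The RING transfers ubiquitin from an E2 enzyme to that substrate, and members without a RING act mainly as adaptors or regulators. Interferons induce a subset of the family, whose members restrict viruses directly or tune signaling from the sensors of viral nucleic acids, while other members act in neurons on axon growth, the cytoskeleton and synapses, or in the nucleus on transcription.

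RNA came from the whole brain of male wild-type C57BL/6J mice, 5 young (3 months by the sample labels) and 4 old (33 months), with no treatment. Poly(A)-selected RNA was sequenced in bulk, so fewer cells of a type and less RNA per cell cannot be told apart. Each library is 1 mouse, named here by its age and replicate number (young 4, old 3), and old replicate 2 was not analysed here.

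The promoters of the interferon-inducible members are shown first, because they differ from those of the other members in a short sequence. Interferon-regulated genes often hold an interferon-stimulated response element (ISRE), a site bound by IRF proteins. Its core was searched as GAAANNGAAA on both strands of the RefSeq promoters for GRCm38.p6, which run from 250 bases before to 50 after a start site. Of the 68 Trim genes, 53 had a promoter in this table, 14 of them interferon-inducible. The core was present in 8 of these 14 genes and in 1 of 39 other Trim genes (Trim2). By promoter, 9 of 15 from interferon-inducible members (60%) and 1 of 52 from other members (1.92%) held it, against 1131 of all 32851 promoters (3.44%). The interferon-gamma activated site, searched as TTCNNNGAA, was present in 1 of the 14 interferon-inducible genes (Trim30c) and in 5 of 39 others, against 9.55% of the 27025 genes in the table. A match is a run of letters and was not tested as a binding site.

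The 8 genes with an ISRE core are printed 5′ to 3′ on the strand of the gene, 25 bases before the match to at most 60 in all and no further than 30 bases past the start site, with each match in capitals. Where the capitals read TTTC, the core lies on the opposite strand. For Trim30a the match at the upstream of 2 start sites is shown.
Trim30a, chr7:104465195-104465254, minus strand: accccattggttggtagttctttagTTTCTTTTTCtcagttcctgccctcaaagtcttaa
Trim30d, chr7:104507856-104507915, minus strand: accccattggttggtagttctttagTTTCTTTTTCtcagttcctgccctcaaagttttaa
Trim5, chr7:104288121-104288180, minus strand: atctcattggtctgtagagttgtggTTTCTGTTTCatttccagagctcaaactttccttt
Trim12c, chr7:104353344-104353403, minus strand: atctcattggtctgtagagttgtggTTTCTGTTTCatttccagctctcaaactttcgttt
Trim12a, chr7:104315466-104315510, minus strand: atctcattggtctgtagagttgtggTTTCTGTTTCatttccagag
Trim34a, chr7:104244442-104244486, plus strand: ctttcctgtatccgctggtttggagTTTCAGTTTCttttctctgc
Trim21, chr7:102565453-102565494, minus strand: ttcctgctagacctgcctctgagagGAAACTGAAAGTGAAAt
Trim26, chr17:36836961-36837020, plus strand: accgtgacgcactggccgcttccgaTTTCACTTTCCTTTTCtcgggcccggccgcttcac

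The windows of Trim30a and Trim30d were the same at 59 of 60 positions, and those of Trim5 and Trim12c at 57 of 60. The 45 bases shown for Trim12a were identical to the start of the Trim5 window. These genes are close copies, so their matches are not separate observations. Trim21 and Trim26 each held 2 overlapping matches, whereas the promoters of Trim6, Trim25, Trim30b, Trim30c, Trim34b and Trim56 held none and Trim14 had no entry in the table.

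The interferon-inducible members lay close together in the genome. Of the 15, 10 formed a cluster on chromosome 7 between positions 104218793 and 104507849 (GRCm38, 289057 bases), in the order Trim6, Trim34a, Trim5, Trim12a, Trim34b, Trim12c, Trim30b, Trim30c, Trim30a and Trim30d, and Trim21 lay elsewhere on chromosome 7. Several members of this cluster share stretches of sequence, and only uniquely mapped reads were counted. Of all 100-base stretches of the annotated transcripts, a rough guide to reads that could fit another gene, 39.0% were shared with another gene for Trim34a (21.0% with Trim34b, and others with the antisense gene Gm47248), 11.7% for Trim5, 8.05% for Trim12c, 4.57% for Trim30d, 4.41% for Trim30a and 3.29% for Trim12a. Trim6, Trim30b and Trim30c shared none. Gm47248 had 0 counts in every mouse. These are shares of sequence and not of reads, and how far they affect the counts was not measured.

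The libraries held 14229259 to 21150439 counts, with medians of 18219839 in young and 17689652 in old mice, and Trim genes took 0.258% to 0.275% of them. The markers of neurons, astrocytes and oligodendrocytes were all detected, and of 10 lymphocyte markers 1 passed the filter. On the scale of log2 CPM, the counts of a gene scaled to a common library total, averaged over 14 markers of activated microglia, young 4 stood at 4.23, within the range of the old mice (3.93 to 4.37) and above the other young mice (2.31 to 2.55). Old 4 was the highest for red blood cell markers (5.80, against 4.14 to 5.13 in the other old and 3.51 to 4.10 in the young mice) and for striated muscle markers (2.52, against at most 0.86 in any other mouse). The counts given next are therefore also given without young 4 and old 4.

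To ask whether interferon-inducible and other members differ in their change with age, old and young mice were compared in edgeR's quasi-likelihood test over 18492 genes, and a gene passed at a Benjamini-Hochberg adjusted p under 0.05. Trim30a, Trim30d, Trim14, Trim34a, Trim12c and Trim56 rose with age, which makes 6 of 11 interferon-inducible members tested, and none fell. Over all genes tested, 6.20% rose and 4.83% fell. With an absolute log2 fold change over 0.58 as well, 5 of the 11 rose, against 2.28% of all genes rising and 0.400% falling. The median log2 fold change of the 11 members was 0.60, 10 of them lay above 0, and the median over all genes was -9.2e-05.

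Among the 34 other members tested, Trim33 rose and Trim37 and Trim17 fell, shares that lie near those over all genes. None of the 34 passed both thresholds, their log2 fold changes ran from -0.37 to 0.46, and their median was 0.04. On the scale of log2(TPM + 1) their median was -0.13, and that of all genes was -0.14. In every old mouse the level was above that of every young mouse for 6 of the 11 interferon-inducible and 1 of the 34 other members, against 6.50% of all genes. It was below in every old mouse for 0 and 2 members, against 6.08%. Without young 4 and old 4, 5 interferon-inducible members passed, Trim14 being lost, and 3 other members, with medians of 0.56 and 0.05. Those 3 were Trim37, Trim67 and Trim36, all lower, while Trim33 (edgeR, adjusted p = 0.0638) and Trim17 (0.169) no longer passed. Over all genes in that fit, 977 of 18320 rose and 674 fell. With limma on the deposited TPM values 2 interferon-inducible members (Trim30a and Trim30d) and 0 others passed. Calls over all 18492 genes were fewer there too, with 307 rising and 287 falling on log2(TPM + 1), against 1146 and 893 in edgeR. The contrast of the lists is a description by counts and medians and carries no test.

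**Figure D1:**
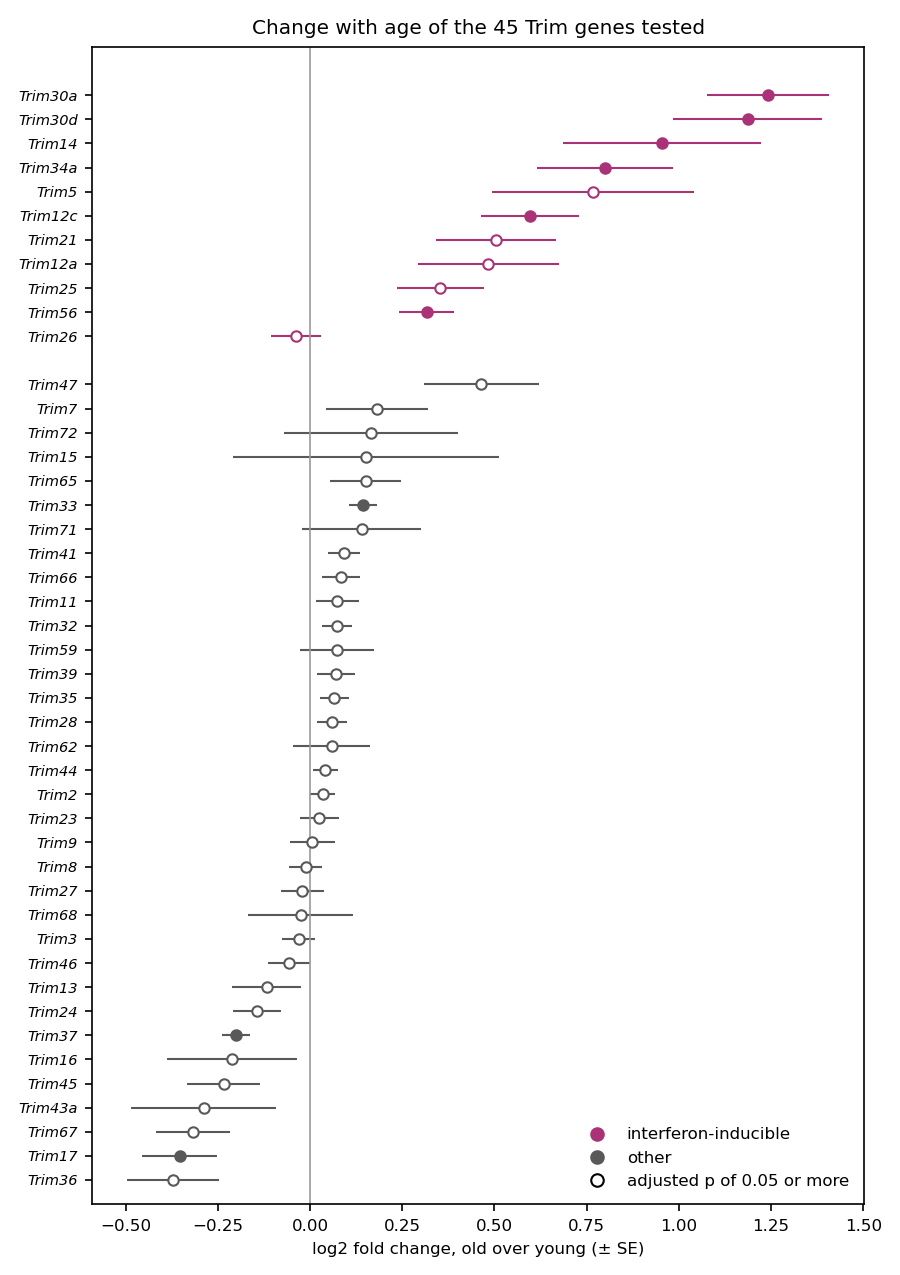
Log2 fold change of old over young mice (x axis, with standard error as bars) for the 45 Trim genes tested, ordered by value within the interferon-inducible (magenta) and the other members (grey). Filled points have an edgeR adjusted p under 0.05: 6 of the 11 magenta points are filled and lie right of 0, while the grey points spread on both sides of 0 between -0.37 and 0.46.

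The largest changes in the family were those of the Trim30 genes at the end of the chromosome 7 cluster. Trim30a, whose protein restrains Toll-like receptor signaling in mice, was at 2.35, 2.66, 2.61, 3.38 and 2.72 CPM in young 1 to 5 and at 5.05, 8.67, 6.78 and 5.75 CPM in old 1, 3, 4 and 5. Old 3 was the highest and no old mouse reached down to the young mice. Its log2 fold change was 1.24 ± 0.17 (SE; edgeR, adjusted p = 0.00046), a 2.36-fold difference of the fitted levels.

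Its neighbor Trim30d stood at 1.31, 1.22, 0.893, 1.98 and 1.85 CPM in young 1 to 5 and at 3.40, 3.81, 3.23 and 2.99 CPM in old 1, 3, 4 and 5. The ages did not overlap here either, and the log2 fold change was 1.19 ± 0.20 (SE; edgeR, adjusted p = 0.0025). These 2 genes passed in every alternative fit, TPM values included. Trim30b and Trim30c, between them and the rest of the cluster, had at most 6 and 3 counts in any mouse and were not tested.

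Trim34a, a close relative of Trim6 and Trim5, was at 1.88, 1.44, 2.13, 1.93 and 2.66 CPM in young 1 to 5 and at 3.61, 4.16, 2.68 and 3.52 CPM in old 1, 3, 4 and 5. Old 4 was only just above young 5, the highest young mouse. The log2 fold change was 0.80 ± 0.18 (SE; edgeR, adjusted p = 0.0135). Its copy Trim34b, with which it shares stretches of transcript, had at most 1 count in any mouse.

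The mouse has several counterparts of primate TRIM5, the factor that binds incoming retroviral capsids, and Trim12c, Trim12a and Trim5 are 3 of them. Trim12c was at 3.29, 3.37, 3.85, 4.35 and 3.71 CPM in young 1 to 5 and at 4.67, 5.99, 6.57 and 5.28 CPM in old 1, 3, 4 and 5, without overlap. It rose by 0.60 ± 0.13 on the log2 scale (SE; edgeR, adjusted p = 0.0115).

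The promoter windows of these 3 genes were nearly the same, but the other 2 did not pass. Trim12a ranged from 2.82 to 4.6 CPM in young and from 4.09 to 7.83 CPM in old mice, where old 3 stood at 7.83 and the other 3 at or below 4.76 CPM (log2 fold change 0.48 ± 0.19, edgeR, adjusted p = 0.125). Trim5 ranged from 0.58 to 0.836 CPM in the young mice, and old 4 (1.70) and old 5 (1.53) were well above old 1 (0.903) and old 3 (0.776; log2 fold change 0.77 ± 0.27, edgeR, adjusted p = 0.0879). The intervals of their log2 fold changes, 0.07 to 0.90 and 0.18 to 1.35 (95%), both include the value of Trim12c, so a difference among the 3 genes was not shown.

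Outside the cluster, Trim14, which lacks a RING and acts as an adaptor of the mitochondrial antiviral protein MAVS, was at 0.366, 1.11, 0.550, 0.966 and 0.988 CPM in young 1 to 5 and at 1.43, 1.69, 1.64 and 1.47 CPM in old 1, 3, 4 and 5. All old mice were above all young mice, and the young mice were the more spread. The log2 fold change was 0.95 ± 0.27 (SE; edgeR, adjusted p = 0.0353). The call was lost when young 1, young 3 or any single old mouse was left out (adjusted p up to 0.0775, without old 3). The gene overlaps Nans, a sialic acid synthase gene on the opposite strand, with which 27.7% of its 100-base stretches are shared, and whether reads were counted by strand is not stated for these libraries. Nans itself was at 14.2 to 15.7 CPM in young and 14.6 to 15.8 CPM in old mice (log2 fold change 0.01 ± 0.06, edgeR, adjusted p = 0.957).

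Trim56, which acts on the cytosolic DNA sensing pathway and restricts RNA viruses, showed the smallest of the 6 rises at a higher level. It was at 12.6, 14.7, 13.6, 14.9 and 14.1 CPM in young 1 to 5 and at 15.5, 18.3, 17.9 and 18.1 CPM in old 1, 3, 4 and 5. Old 1 lay apart from the other old mice, and the ages did not overlap (log2 fold change 0.32 ± 0.07, edgeR, adjusted p = 0.0142).

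Trim21, a cytosolic receptor for antibody Fc, and Trim25, known for its action on the RNA sensor RIG-I and on the antiviral protein ZAP, had higher means in the old mice and did not pass. For Trim21 the young mice ranged from 2.20 to 2.99 CPM and the old from 2.71 (old 1) to 4.21 CPM (log2 fold change 0.50 ± 0.16, edgeR, adjusted p = 0.0638). For Trim25 they ranged from 7.42 to 9.90 and from 8.82 (old 1) to 13.2 CPM (0.35 ± 0.12, adjusted p = 0.0717). In both genes only old 1 lay within the young range, and without old 1 both passed (edgeR, adjusted p = 0.02711 and 0.02695). Trim25 also passed without young 4 and with no filter on low counts.

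Trim26, a ligase acting on the transcription factor IRF3, stood apart from the other interferon-inducible members. It ranged from 25.5 to 32.0 CPM in young and from 26.6 to 30.3 CPM in old mice, with a log2 fold change of -0.04 ± 0.07 (edgeR, adjusted p = 0.771; 95% interval -0.18 to 0.11). Its promoter held 2 overlapping ISRE cores, while those of Trim25 and Trim56 held none. Of the members that rose, Trim30a, Trim30d, Trim34a and Trim12c held a core, and of those that did not pass, Trim5, Trim12a and Trim21 also did. A relation of the core to the change with age was not tested. Trim6, the remaining member of the list with counts in every mouse, had 2 to 10 counts per mouse and was not tested.

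**Figure D2:**
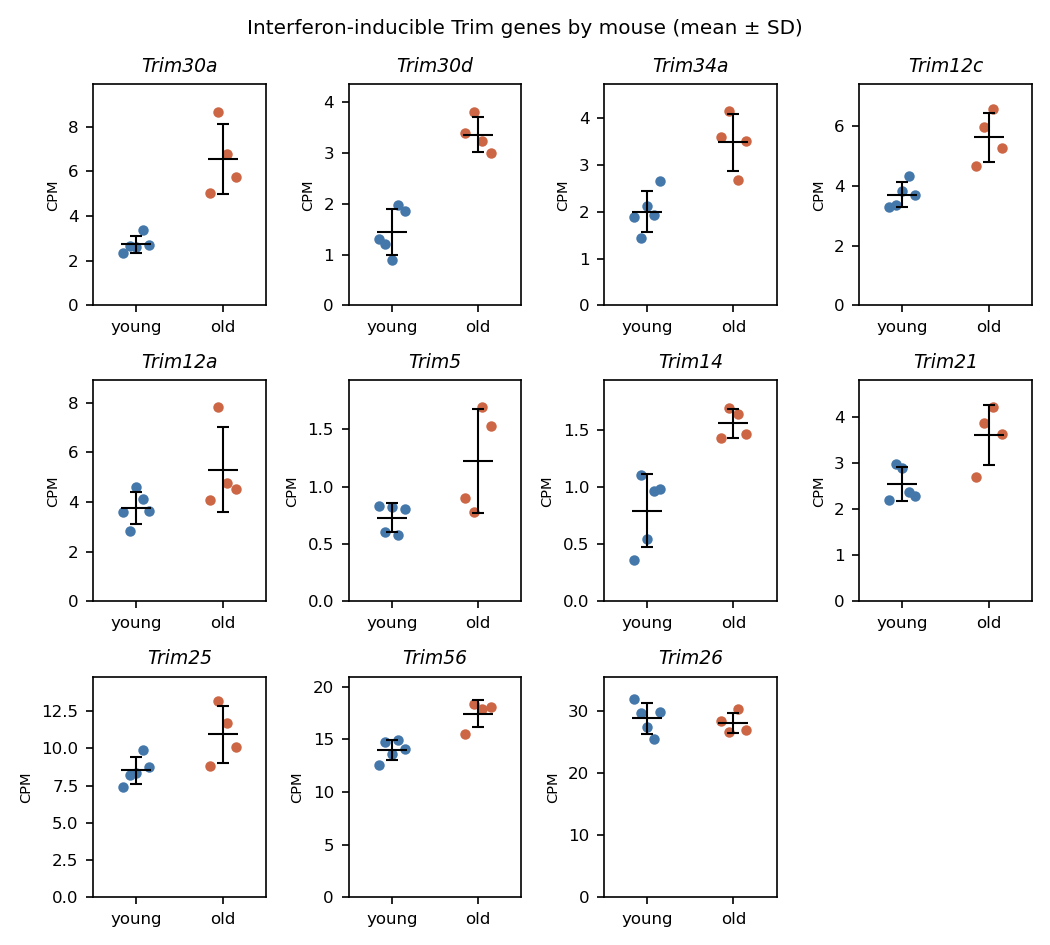
Level in CPM (y axes from 0, a scale for each gene) of the 11 interferon-inducible Trim genes tested, with a point for each mouse (young blue, old orange) and the mean with SD as a bar. In Trim30a, Trim30d, Trim34a, Trim12c, Trim14 and Trim56 all 4 old mice lie above all 5 young mice, while in Trim26 both ages lie between 25.5 and 32.0 CPM.

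Averaged over the 11 genes, the level of the interferon-inducible members was 1.65 to 1.91 log2 CPM in young and 2.23 to 2.56 in old mice, lowest in old 1 and highest in old 3. For the 34 other members it was 4.64 to 4.71 and 4.63 to 4.68. The interferon-inducible members made up 2.53% to 2.76% of the family's CPM in young and 2.91% to 3.61% in old mice.

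Several cell type markers moved with age in the same mice. Of 14 activated microglia markers tested, 6 rose, as did 3 of 11 homeostatic microglia markers (4.05 to 4.38 log2 CPM in the young, 4.35 to 4.58 in the old mice), 5 of 10 endothelial markers (4.97 to 5.03 and 5.16 to 5.25, with 1 more falling) all 5 red blood cell markers and 4 of 8 oligodendrocyte markers (8.46 to 8.68 and 8.53 to 8.81, with 1 more falling), against 6.20% of all genes rising and 4.83% falling. Of 11 neuronal markers 2 fell and none rose (9.12 to 9.20 and 9.07 to 9.19). No marker of these lists was at 0 in all mice. In young 4 the mean over the activated microglia markers lay within the range of the old mice, but single markers differed. Itgax was at 9.71 CPM in young 4 and 2.76 to 5.42 in the old mice, Gpnmb at 7.68 and 14.6 to 27.7 CPM. For the homeostatic markers young 4 was the highest young mouse (4.38 log2 CPM, the others at most 4.23). Its interferon-inducible Trim genes were at 1.90 log2 CPM, level with young 5, the highest young mouse, and below every old mouse. The part of these cell types in the changes of the Trim genes was not tested.

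**Figure D3:**
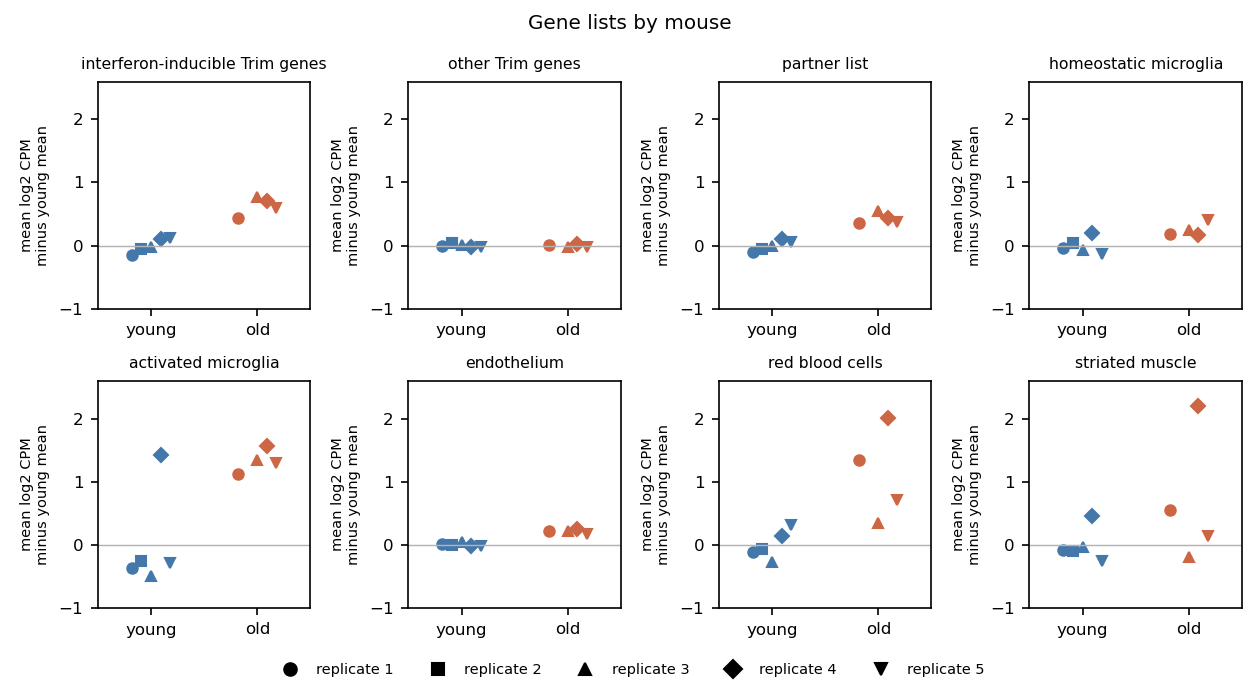
Mean log2 CPM of the genes of a list in each mouse, minus the mean of the young mice (y axes, same scale), for both Trim lists, the partner list and 5 marker lists, with marker shape for the replicate number. The interferon-inducible Trim genes are higher in all 4 old mice than in any young mouse, and young 4, in which the activated microglia markers are at 4.23 log2 CPM, lies level with young 5.

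Interferon-inducible Trim proteins act on the sensors, kinases and modifiers of antiviral signaling, and 27 such genes were all tested. Of these, 12 rose, against 6.20% of all genes, 0 fell, and 10 of the 12 rose by more than 0.58, against 2.28%. The median log2 fold change was 0.18. This list was written with earlier results known, and it is described by its counts only.

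The largest rise was that of Irf7, a transcription factor that amplifies interferon production, from 1.15 to 2.46 CPM in the young to 4.52 to 14.03 CPM in the old mice (log2 fold change 2.06 ± 0.29, edgeR, adjusted p = 0.000688), with old 3 the highest, as for Trim30a. The sensors Ddx58, which encodes RIG-I (0.88 ± 0.12), and Ifih1, which encodes MDA5 (0.80 ± 0.15), rose, and so did Zc3hav1, which encodes ZAP (0.99 ± 0.11). The ubiquitin-like modifier Isg15 (1.08), its E1 Uba7 (0.74), its E2 Ube2l6 (0.87) and its protease Usp18 (1.42) rose as well, whereas its ligase Herc6 did not pass (0.17, edgeR, adjusted p = 0.288). Tmem173, which encodes STING (0.68), Irf9 (0.36) and Samd9l (0.82) were among the other genes that rose.

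The kinase Tbk1 (0.07), the adaptor Mavs (0.07), the factor Irf3 (0.05) and the receptor chains Ifnar1 (-0.03) and Ifnar2 (0.04) did not pass in edgeR, with adjusted p of 0.354 to 0.766. Of the Trim genes just described, Trim25 acts with Ddx58 and Zc3hav1, which rose, Trim14 with Mavs, and Trim26 with Irf3. These pairings are background, and no relation between the levels was tested.

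Turning to the other members, the clearest change was that of Trim37, a ligase of centrosomes and peroxisomes mutated in mulibrey nanism. It was at 361, 335, 346, 372 and 347 CPM in young 1 to 5 and at 305, 316, 310 and 296 CPM in old 1, 3, 4 and 5. All old mice lay below all young mice. Trim37 fell by 0.20 on the log2 scale (SE 0.04; edgeR, adjusted p = 0.0046), a small change in a gene with many counts.

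Trim33, a nuclear ligase of the transcriptional intermediary factor group that acts on SMAD4, was at 72.2, 72.9, 68.7, 73.0 and 72.8 CPM in young 1 to 5 and at 78.1, 84.3, 78.8 and 77.1 CPM in old 1, 3, 4 and 5. The ages did not overlap, young 3 was the lowest and old 3 the highest. The log2 fold change was 0.14 ± 0.04 (edgeR, adjusted p = 0.0270). Without young 1, young 3 or old 3, or with the replicate number as a block, Trim33 no longer passed (adjusted p up to 0.0788). With no filter on low counts it did not pass either (edgeR, adjusted p = 0.0720). On the TPM scale, where the median of all genes was at -0.14, it was at -0.02 and did not pass.

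Trim17, known from the testis and from neurons undergoing apoptosis, was at 7.16, 7.41, 8.04, 7.87 and 7.23 CPM in young 1 to 5 and at 5.84, 6.21, 4.98 and 6.63 CPM in old 1, 3, 4 and 5. Every old mouse was below every young mouse, old 4 the lowest. The log2 fold change was -0.35 ± 0.10 (edgeR, adjusted p = 0.0391). Leaving out any single mouse but old 5 ended the call (adjusted p up to 0.114, without old 4). The replicate block (0.0858) and edgeR with no filter on low counts (0.0513) ended it too. Of its 100-base stretches 16.4% are shared with the histone gene Hist3h2a, whose exons it overlaps, and Hist3h2a also fell, from 11.0 to 13.3 CPM in the young to 8.67 to 10.7 CPM in the old mice (log2 fold change -0.33 ± 0.09, edgeR, adjusted p = 0.0266). Reads of the 2 genes cannot be told apart over the shared stretch.

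The C-I group, which binds microtubules and acts in axon growth and at synapses, held 4 members. None of them passed in the main edgeR fit, with its filter on low counts. Without young 4 and old 4, Trim67 (log2 fold change -0.45, edgeR, adjusted p = 0.00667) and Trim36 (-0.51, adjusted p = 0.0194) passed. Over all 9 mice both passed in DESeq2's Wald test (adjusted p = 0.0270 and 0.0464). Both also passed there in edgeR with no filter on low counts (adjusted p = 0.0076 and 0.0227). Trim67 passed as well in limma on the counts that the authors had scaled (adjusted p = 0.0444). Trim67, a brain-enriched ligase of axon guidance, ranged from 26.7 to 30.6 CPM in the young mice and was at 23.4, 17.5, 28.6 and 21.6 CPM in old 1, 3, 4 and 5, so that 3 of the 4 old mice lay below all young mice (log2 fold change -0.32 ± 0.10, edgeR, adjusted p = 0.0597). Trim36 ranged from 9.08 to 13.5 CPM in young and from 7.70 to 10.5 CPM in old mice (-0.37 ± 0.12, adjusted p = 0.0714). For Trim9, which controls netrin-dependent axon branching, the value was 0.01 ± 0.06 (95% interval -0.12 to 0.13), and for Trim46, which bundles microtubules at the axon initial segment, -0.06 ± 0.06 (-0.18 to 0.06).

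The NHL group, named after the repeats at its C-terminal end, also held 4 members of which none passed. Trim2, a ligase of the neurofilament light chain, was at 361 to 389 CPM in young and 375 to 393 CPM in old mice (log2 fold change 0.03 ± 0.03, 95% interval -0.04 to 0.11). Trim3, a ligase of postsynaptic scaffolds, was at 139 to 150.4 and 130.04 to 149.7 CPM (-0.03 ± 0.04, -0.13 to 0.07). Trim32, mutated in a limb-girdle muscular dystrophy, was at 161 to 172 and 164 to 189 CPM (0.07 ± 0.04, -0.02 to 0.16), and Trim71, a factor of embryonic stem cells, at 1.79 to 2.66 and 2.17 to 2.52 CPM (0.14 ± 0.16). For the first 3 of these genes, the intervals leave room for changes of at most 0.16 on the log2 scale.

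Of the transcriptional intermediary factor group, Trim33 was described above. Trim28, the co-repressor of KRAB zinc finger proteins, was at a log2 fold change of 0.06 ± 0.04, Trim66 at 0.08 ± 0.05 and Trim24 at -0.14 ± 0.06, and these 3 did not pass (edgeR, adjusted p of 0.397, 0.333 and 0.176). The transmembrane members Trim13 (-0.12) and Trim59 (0.07) did not pass. Among members outside these groups, and named after their values were seen, Trim47 was higher in all old mice but old 5 than in every young mouse, at 5.58, 5.01, 5.09 and 4.87 CPM in old 1, 3, 4 and 5 and 2.96 to 4.92 CPM in the young mice (0.46 ± 0.16, edgeR, adjusted p = 0.0733). It shares exons with its neighbor Trim65, and it passed without young 2 (adjusted p = 0.0237).

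**Figure D4:**
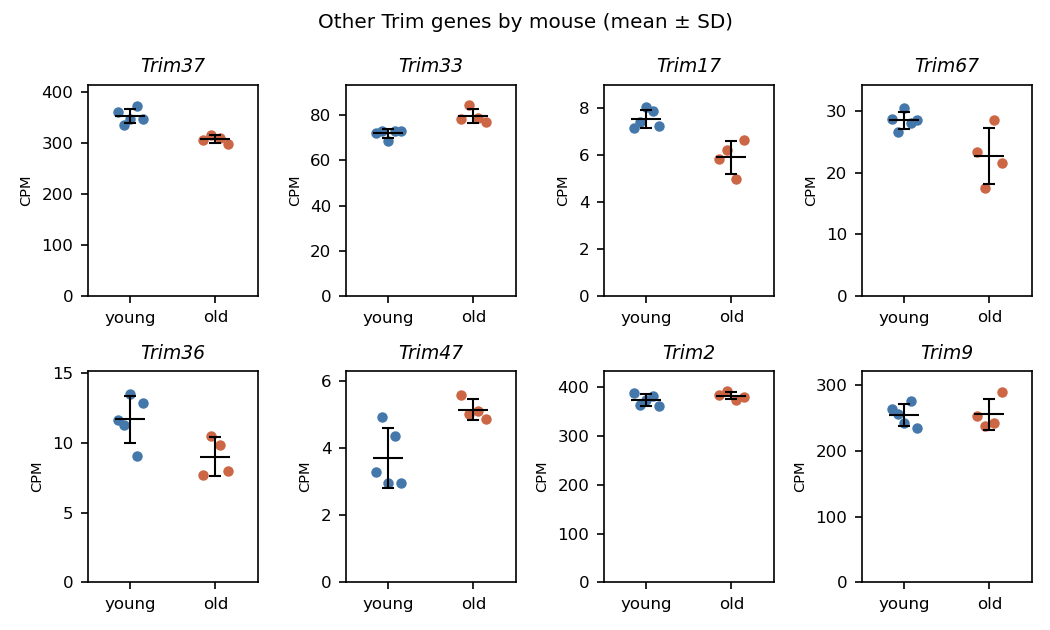
Level in CPM (y axes from 0, a scale for each gene) of 8 other Trim genes, with a point for each mouse (young blue, old orange) and the mean with SD as a bar. The old mice lie below the young mice in Trim37 and Trim17 and above them in Trim33, and the ages overlap in the other 5 genes.

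Levels between members were compared per length with the deposited TPM values. The most abundant members by TPM over the 9 mice were Trim44 (145 TPM), Trim32 (132), Trim37 (115), Trim35 (92.6), Trim9 (85.2), Trim3 (77.5), Trim8 (74.4) and Trim28 (66.9), and these 8 held 67.0% of the family's TPM. The order depends on the gene lengths used for TPM, which are not given. Trim2, at place 10 with 47.6 TPM, had mean CPM of 374 in young and 383 in old mice, against 325 and 335 for Trim44. By mean and SD, Trim44 was at 151 ± 27.3 TPM in the young (n = 5) and 137 ± 13.1 in the old mice (n = 4), and Trim32 at 136 ± 25.6 and 126 ± 18.4, with a spread between mice wider than the gap. Within a mouse, Trim44 was above Trim32, Trim32 above Trim37, Trim37 above Trim35 and Trim8 above Trim28 in 9 of 9 mice, whereas Trim35 was above Trim9 in 7, Trim9 above Trim3 in 8 and Trim3 above Trim8 in 6 of 9. Of these 8 only Trim37 passed the test for age. For Trim44, which lacks a RING, Trim35 and Trim8 the log2 fold changes were 0.04 ± 0.03, 0.07 ± 0.04 and -0.01 ± 0.04 (edgeR, adjusted p of 0.485, 0.329 and 0.902).

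By mean TPM the interferon-inducible members stood between places 21 and 61 of 68. The highest was Trim26 (10.3 TPM, place 21 of 68), followed by Trim56 (4.11, place 26) and Trim25 (4.08, place 27). The members of the chromosome 7 cluster that rose had 1.73 ± 0.27 TPM in young and 3.64 ± 0.52 in old mice for Trim30a, 0.968 ± 0.156 and 2.06 ± 0.17 for Trim30d, 2.02 ± 0.55 and 3.11 ± 0.53 for Trim34a, and 2.59 ± 0.52 and 3.46 ± 0.35 for Trim12c (mean ± SD, n = 5 and 4). Trim5 and Trim14, at 0.636 and 0.625 TPM, closed the list of interferon-inducible members tested. In all, 21 members reached 10 TPM, 41 reached 1 TPM and 12 stayed under 0.1 TPM.

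**Figure D5:**
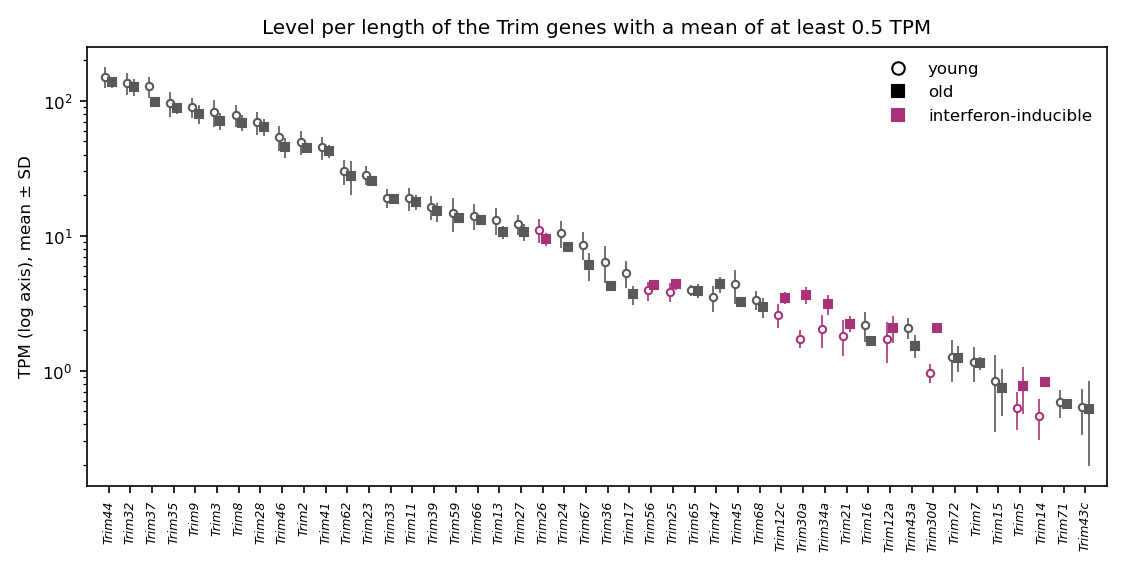
Mean deposited TPM (log axis) with SD for the Trim genes with a mean of at least 0.5 TPM, in order of the mean over all mice, with young mice as open circles (n = 5), old mice as filled squares (n = 4) and the interferon-inducible members in magenta. Trim44 leads at 145 TPM, and the interferon-inducible members stand at 10.3 TPM or less.

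Low counts kept 23 members out of the test, 4 interferon-inducible and 19 other. Of the germ line and early embryo list 3 of 11 members were tested. Trim17, which fell, was the only one that passed, against 4.83% of all genes falling. Of the 4 muscle members Trim72 was tested and did not pass (0.16 ± 0.24, edgeR, adjusted p = 0.71). Of 5 members without a RING 4 were tested. Trim14, which rose, was the only one that passed, against 6.20% of all genes rising.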

How the data were processed

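RNA-seq of whole brain from 5 young and 4 old mice was analysed. The authors trimmed reads with Trimmomatic, aligned them to GRCm38 with STAR and used featureCounts for the uniquely mapped reads on exons. These counts were deposited as they were, unscaled. A further deposited table is a signal of 17994 genes, for which the authors scaled every library by 1 size factor, and the deposited TPM values were made by the authors with gene lengths not given in the sources used here. Per table, 1 column of per-sample values matched no sample and was not used.

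Symbols, positions and transcripts came from GENCODE M21 (GRCm38), and 345 gene IDs had no symbol. Genes were filtered with filterByExpr (minimum count 10, minimum total 15), libraries scaled by TMM, and old compared with young mice with the quasi-likelihood test of edgeR, adjusting p by Benjamini-Hochberg over all 18492 genes. Standard errors come from the log2 fold change and the F statistic, intervals are 95%, and log2 CPM used a prior count of 2. The biological coefficient of variation was 6.71%, and the median standard error of a log2 fold change was 0.0838. On simulated counts for this comparison over 18492 genes, 70% of genes changed by 0.58 on the log2 scale and 79.5% of those changed by 1 were called, with 6.04% and 5.36% of the calls on unchanged genes. Libraries of an age differed by more than sampling noise (lowest ratio of chi-square to its degrees of freedom 4.04), so each counted as a replicate. The tools used were edgeR 4.0.16, DESeq2 1.42.0 and limma 3.58.1 under R 4.3.3.

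The members and lists were chosen with earlier results of these data known. The interferon-inducible list comes from textbook knowledge. Not every gene of the partner list is reported here by name. Named by rule were this list, other members that passed, the 8 most abundant by TPM and the NHL, C-I and transcriptional intermediary factor groups. Promoters came from RefSeq (GRCm38.p6), and all matches were to these letters on both strands. For 56 of the 67 Trim promoters the bases after the start lay in an annotated transcript of the gene on the same strand, and for none on the opposite strand. A planned comparison of protein sequences between copies was not run, and shared 100-base stretches of transcripts stand in for it. Alternatives were other scalings, filters, thresholds and tests, a wider interferon-inducible list, a replicate block and each mouse left out. A robust dispersion estimate and leaving out young 4 and old 4 together were added after the data were seen.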

Additional observations from a re-analysis of the deposited data

Results flagged for a closer look

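In 4 of 116 combinations of a value and an age, a single mouse lay apart from the others of its age by Dixon's ratio, the gap to the nearest mouse over the range of all. Chance gives about 5.8 such cases at 1 in 20, so the number of cases is no pattern.

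Trim33 in the young mice had a ratio of 0.8083, with young 3 at 6.104 log2 CPM and the others at 6.176 to 6.193. Without young 3 the rise of Trim33 no longer passed (log2 fold change 0.13, edgeR, adjusted p = 0.0708).

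Trim56 in the old mice had a ratio of 0.8535, with old 1 at 3.966 log2 CPM and the others at 4.170 to 4.206. Trim56 passed without any single mouse, with log2 fold changes of 0.28 to 0.37.

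Trim46 in the young mice had a ratio of 0.734, with young 5 at 6.147 log2 CPM and the others at 6.281 to 6.330. This gene did not pass.

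The mean over the activated microglia markers in the young mice had a ratio of 0.8743, with young 4 at 4.226 log2 CPM and the others at 2.308 to 2.549. In the same mouse the interferon-inducible Trim genes were at 1.90 log2 CPM, and without it 7 of 11 passed, while 1148 of 18132 genes rose and 794 fell.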

How the results depend on the processing

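Of the interferon-inducible members 6 passed, and 5 to 7 with any single mouse left out. Of the other members 3 passed, and 1 to 3 with any single mouse left out (1 without young 1, young 3 or old 3, and 3 without young 2, young 4, old 4 or old 5). The medians kept their direction in these fits, at 0.53 to 0.68 and 0.02 to 0.05. Over all genes 1454 to 1942 passed in them. The deposited TPM values moved most, and the cause was not tested. In limma on log2(TPM + 1) and on log2(TPM + 0.1) the median of all genes was -0.14 and -0.16, the interferon-inducible median 0.21 and 0.42, and that of the other members -0.13 in both. There 2 interferon-inducible members (Trim30a and Trim30d) and 0 other members passed, against 594 and 600 of all 18492 genes, and 6 and 5 genes of the partner list against 12. Trim33 turned to -0.0189 and -0.0193. DESeq2's Wald test passed 5 other members, with Trim36 and Trim67 added, while over all genes 1114 rose and 979 fell. With no filter on low counts, edgeR passed 7 interferon-inducible members, with Trim25 added (adjusted p = 0.0475). It passed 4 other members, Trim37, Trim10, Trim36 and Trim67, while Trim33 and Trim17 were lost. Over all 35028 genes in that fit 1304 rose and 1049 fell. At an adjusted p under 0.01, 2 interferon-inducible and 1 other member passed, against 780 of all 18492 genes. At an adjusted p under 0.05 with an absolute log2 fold change over 0.58, 0 other members passed, against 2.28% of all genes rising and 0.400% falling. Without young 1 Trim26 was at 0.0055. Leave-one-out fits ended the call of Trim17 in 8, Trim14 in 6 and Trim33 in 3 of 9 cases, and of no other named member. Correlations of same-numbered mice were low (0.17, -0.12, 0.09 and -0.02), and they cannot settle whether the replicate numbers pair the mice. The old mouse with the highest correlation was old 1 for young 1, and old 4 for young 3, young 4 and young 5. With the replicate block the same 6 interferon-inducible members passed and 2 others, Trim37 and Trim47 (0.60, adjusted p = 0.0308), while Trim33 (0.0788) and Trim17 (0.0858) were lost, with a median of 0.57 and 0.04, and 995 genes rose in all against 1146. A wider interferon-inducible list of 20 members, 13 of them tested, had 6 that rose, against 6.20% of all genes, and a median of 0.50. The median of the remaining members was then 0.03. Counts limit what can be said of the 23 members not tested.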

Other observations

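Genes of the tripartite motif family with other symbols were looked at as a list of 12, of which 7 were tested. Of these 1 rose, against 6.20% of all genes, and 0 fell. Rnf207, a cardiac ion channel regulator with RING and B-box domains, rose from 8.98 to 12.2 CPM in the young to 12.5 to 17.2 CPM in the old mice, without overlap (log2 fold change 0.50 ± 0.10, edgeR, adjusted p = 0.0074). Pml, an interferon-inducible gene known as TRIM19 that organizes nuclear bodies, ranged from 11.2 to 16.5 and from 16.2 to 18.1 CPM and did not pass (0.25 ± 0.09, edgeR, adjusted p = 0.114). Mid1, Mid2, Cmya5, Bspry and Rnf135 did not pass either.

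Trim10, a gene of red blood cell precursors that was too low to test, had 42 counts in old 4 and at most 4 in every other mouse. With no filter on low counts it passed (log2 fold change 2.75, edgeR, adjusted p = 0.0077). Old 4 was also the highest for red blood cell markers (5.80 log2 CPM). This gene was named after its values were seen, and a relation was not tested.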
